A study of Mus musculus with 4 samples.

Results

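This section describes 36 genes of fatty acid uptake and oxidation in mouse heart, out of 20699 named genes on the arrays. They were taken by gene symbol, from a list of genes for the transport, activation and mitochondrial breakdown of fatty acids, and each had exactly 1 probe set. Expression was measured in 4 groups with 1 array each: wild type atria (Mef2a+/+), Mef2a knockout atria (Mef2a-/-), wild type ventricles (Mef2a+/+) and Mef2a knockout ventricles (Mef2a-/-). All mice were 2 months old, no treatment is named in the labels, both males and females were used, and RNA of 7 mice was pooled for each array. The strain, the deleted part of Mef2a and whether the same mice gave both chambers are not stated in the labels. Each pool was read once, which leaves no replicate error: no difference below was tested, and every value describes these pools. In tissue RNA, fewer cells of a type and less RNA per cell cannot be told apart.

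The adult heart draws most of its energy from fatty acids. Lipoprotein lipase frees them from circulating lipids, membrane and cytosolic carriers bring them into the cell, acyl-CoA synthetases activate them, and the carnitine shuttle passes them into mitochondria. There the beta-oxidation spiral shortens the chain turn by turn and hands electrons to the respiratory chain through the electron transfer flavoprotein. Mitochondrial trifunctional protein, built from alpha subunits encoded by Hadha and beta subunits encoded by Hadhb, carries out the last steps of each turn for long chains. MEF2A is a transcription factor of striated muscle.

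Values are log2 intensities, so that a difference of 1 is 2-fold. A gene counted as above the floor in a comparison when the brighter of the 2 arrays reached 5.71, the median of all values. Genotype differences were counted from 1.5-fold and chamber differences from 2-fold. Mef2a itself was not lower on the arrays labelled knockout: it stood at 10.32 and 10.41 in wild type and knockout atria and at 10.28 and 10.34 in ventricles. The signal therefore did not check the genotype labels, on which every direction below rests. All 11 cardiomyocyte markers were above the floor on all arrays. In atria 6 of 7 atrial markers were higher by 2-fold or more, and of 5 ventricular markers 4 in the wild type pair and 5 in the knockout pair were lower there by as much. The interquartile range of all values was 2.97 on the knockout atria array and 3.18 to 3.21 on the others. Of the 36 genes, 35 were above the floor on every array. The exception was Acsl3, an acyl-CoA synthetase, which read 4.89, 4.44, 5.17 and 5.17 on the 4 arrays in the order atria of wild type, atria of knockout, ventricles of wild type, ventricles of knockout, which is kept below.

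The sequence that separates Hadha and Hadhb is shown because these subunit genes of 1 protein differed unequally between genotypes. In RefSeq (build GRCm38.p6) they lie head to head on chromosome 5, with 272 bases between their start sites, so that they are transcribed away from each other. The stretch below is chr5:30155003-30155252 on the plus strand, the 250 bases before the Hadhb start, read 5′ to 3′ towards Hadhb. Capitals mark the 228 bases that also lie within 250 bases of the Hadha start.

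Hadhb: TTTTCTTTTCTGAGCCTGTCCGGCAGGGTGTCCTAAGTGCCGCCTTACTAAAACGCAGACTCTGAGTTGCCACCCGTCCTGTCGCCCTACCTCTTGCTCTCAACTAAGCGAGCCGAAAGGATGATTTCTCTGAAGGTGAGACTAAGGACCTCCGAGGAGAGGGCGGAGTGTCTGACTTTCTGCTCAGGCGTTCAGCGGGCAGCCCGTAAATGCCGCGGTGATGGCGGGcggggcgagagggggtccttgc

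Hadhb differed between the atrial arrays and Hadha did not follow it. Hadhb read 8.17 in wild type atria and 6.42 in knockout atria, and 9.08 on both ventricular arrays. Knockout atria were thus the low array, below the other 3, while the ventricular values were identical to the last deposited digit, as they were for 20 named genes above the floor. The log2 ratio of knockout to wild type was −1.74 in atria, or 3.35-fold lower, and 0.00 in ventricles. In atria this was rank 13 from the lowest of 10893 genes above the floor. Hadha read 10.73, 10.66, 11.57 and 11.56, with log2 ratios of −0.07 in atria and −0.01 in ventricles. Hadhb minus Hadha was therefore −1.67 in atria and 0.01 in ventricles. The atrial difference between the subunit genes ranged from −1.71 to −1.66 over the deposited values and 3 other scalings of the arrays.

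The chamber ratio separated the subunit genes in the knockout pair only. In wild type, atria minus ventricles was −0.84 for Hadha and −0.91 for Hadhb, so that both were lower in atria by a like size. Among the knockout arrays it was −0.90 for Hadha and −2.66 for Hadhb, a 6.32-fold difference and rank 10 from the lowest of 10982 genes above the floor. Both chamber comparisons share arrays with the genotype comparisons, but only the knockout pair holds the low array. Its Hadhb value thus restates that array. Of the 10 protein-coding genes nearest to Hadhb in RefSeq order that had a probe set, chosen after the values were seen, 4 were above the floor in atria and 0 passed 1.5-fold. They were Tyms at −0.02, Hadha, Selenoi at −0.24 and Fam166c at 0.44. Of all genes above the floor in atria, 2.4% were called lower and 1.07% higher. With only 4 genes, 0 calls would therefore be usual, and the count says nothing about the region.

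**Figure D1:**
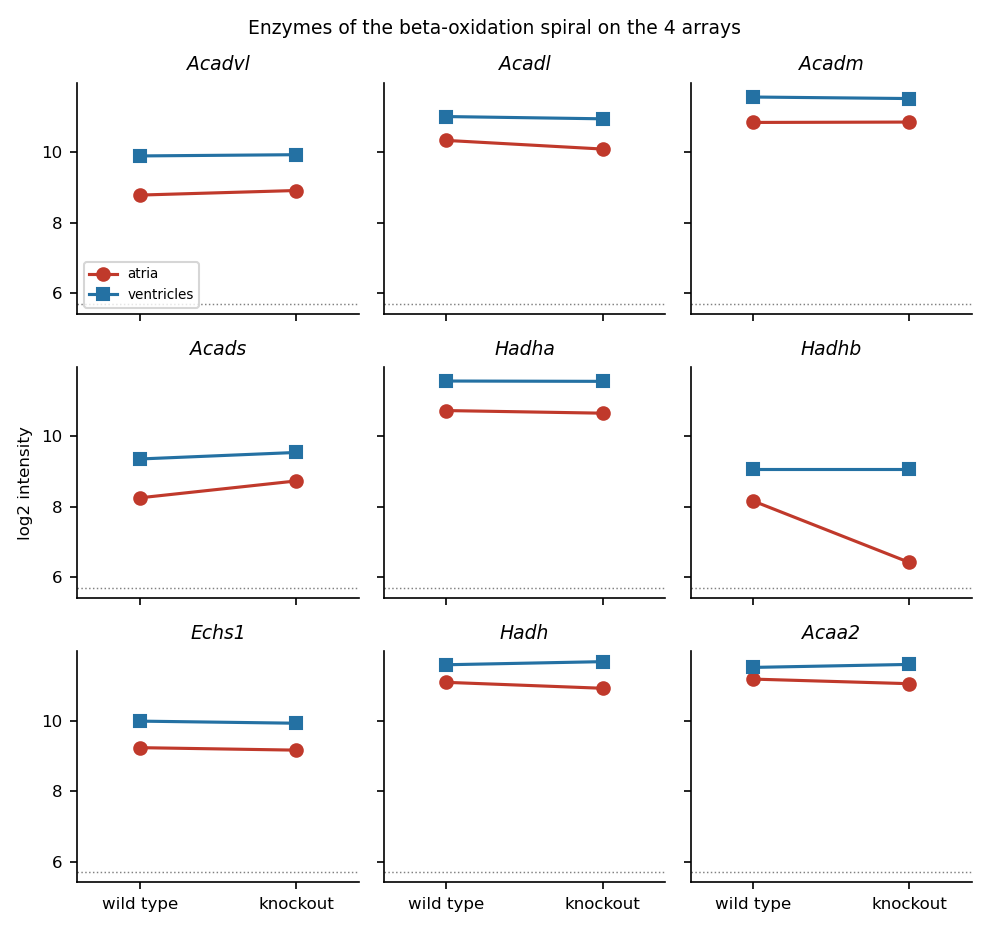
Log2 intensity of the 9 enzymes of the beta-oxidation spiral, 1 panel per gene, in wild type and knockout atria (red circles) and ventricles (blue squares), with 1 pooled array per point and no error bars. The dotted line is the floor of 5.71. Ventricles lie above atria in all panels, and Hadhb has the largest drop of these 9 genes between the atrial arrays, from 8.17 to 6.42.

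The other enzymes of the spiral stayed under 1.5-fold between genotypes, with Acads the farthest from 0. Acads, the dehydrogenase for short chains, read 8.26, 8.74, 9.36 and 9.55 and was higher on the knockout array in both chambers, by 0.48 in atria and 0.19 in ventricles. Of the genes above the floor, 2.3% had an atrial ratio as high or higher. Acadl, the dehydrogenase for long chains, read 10.34, 10.09, 11.02 and 10.95, lower by 0.25 in atria (−0.25) and 0.06 in ventricles (−0.06). The very long chain dehydrogenase gene Acadvl (8.79, 8.92, 9.90 and 9.93) and the medium chain gene Acadm (10.85, 10.86, 11.57 and 11.53) differed by at most 0.13 between genotypes. Echs1, the short chain enoyl-CoA hydratase, was at −0.07 and −0.06. Hadh, the short chain hydroxyacyl-CoA dehydrogenase, had ratios of −0.17 (atria) and 0.09 (ventricles), and the thiolase gene Acaa2 −0.13 and 0.08. Leaving Hadhb aside, the spiral genes thus spanned −0.25 to 0.48 in atria, and all 9 spanned −0.06 to 0.19 in ventricles.

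Over the whole pathway, Hadhb was the only member past 1.5-fold in atria. It was 1 of 35 members above the floor (2.86%) where 2.4% of all genes above the floor were called lower, and 0 members were called higher, against 1.07% of genes. A count of 1 is therefore near the background, and it is the size of the Hadhb difference, not the count, that sets it apart from the other members. The median log2 ratio was 0.04 over the 35 members and −0.04 over all 10893 genes, with 20 members (57.1%) positive, against 42.9% of genes. At a lower fold of 1.2, 3 members were higher in atria (8.57%, background 8.9%) and 5 lower (14.3%, background 15.9%). The higher were Acads, Ucp3 and Pdk4, and the lower Hadhb, Fabp3, Fabp4, Acsl4 and Acsl5.

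In ventricles Ucp2, an uncoupling protein gene of the inner mitochondrial membrane, was the only member past 1.5-fold, and it was just past it. It read 8.62 in wild type and 9.21 in knockout ventricles, a log2 ratio of 0.59 or 1.51-fold, against 10.50 and 10.58 in atria (0.08). That is 1 of 35 members higher (2.86%, background 0.531%) and 0 lower (background 0.711%). Quantile normalization and lowess centring each left Ucp2 under 1.5-fold, with 0 members called. At 1.2-fold, Ucp2 and Pdk4 were higher (5.71%, background 4.11%) and 0 were lower (background 4.45%). Positive ratios were found for 18 members (51.4%), against 51.1% of genes. The median log2 ratio was 0.00 over the members and 0.00 over all 10546 genes. Of the 36 members 33 lay within 0.2 of 0, as most genes did. In steps of 0.1 from −0.2 to 0.2, there were 1334, 2973, 3157 and 1488 of the 10546 genes above the floor. The lower and upper quartiles were −0.05 and 0.09 over the 36 members and −0.09 and 0.10 over all 20699 named genes.

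Macrophages also make Ucp2, and the 9 macrophage markers had a median log2 ratio of −0.14 in ventricles, from −0.32 to 0.02. Their mean level was 7.10, 7.11, 7.04 and 6.89 on the 4 arrays. The part of these cells in the Ucp2 value was not tested.

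**Figure D2:**
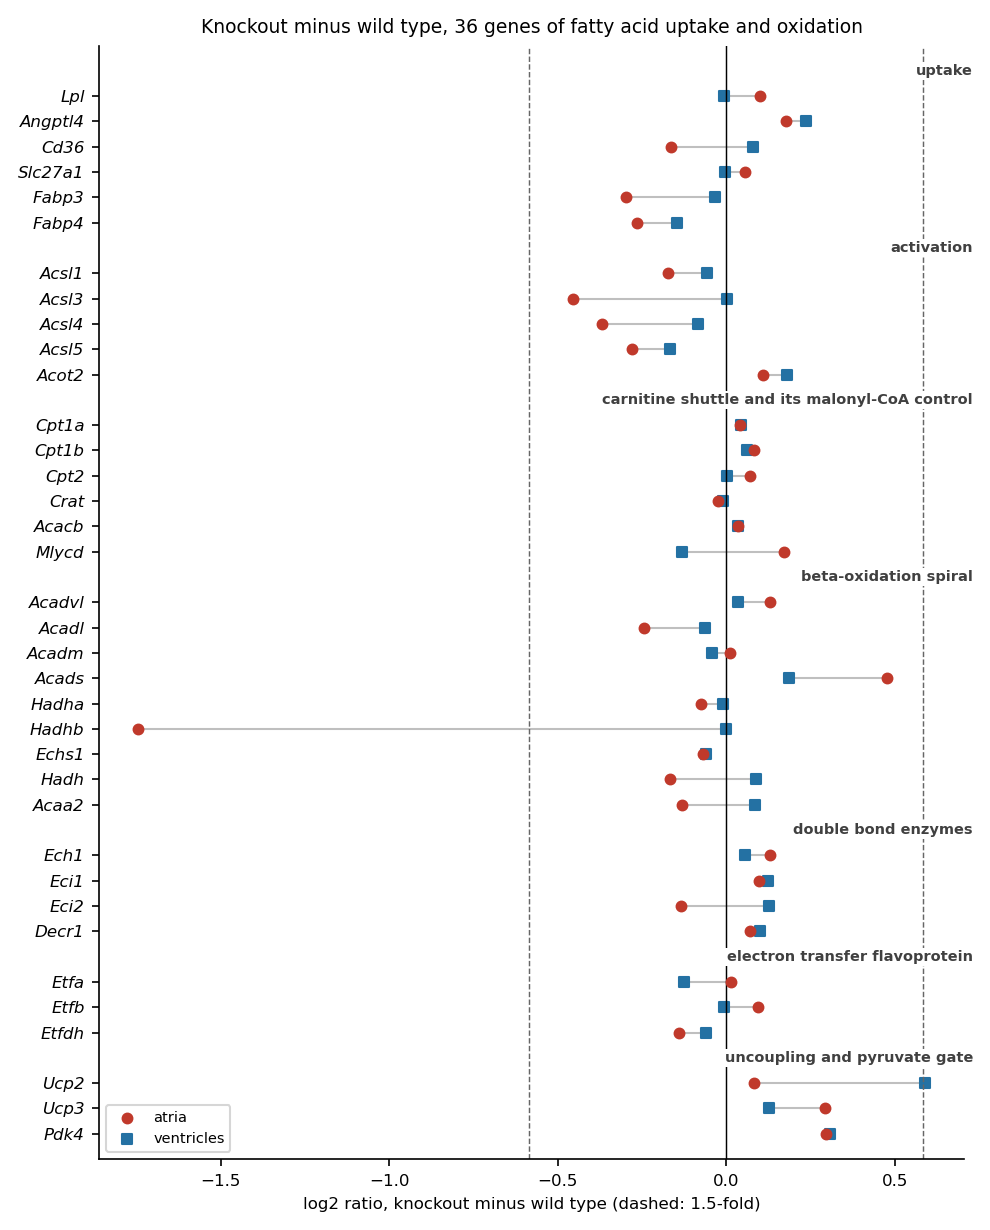
Log2 ratio of knockout to wild type for the 36 genes by step of the pathway, in atria (red circles) and ventricles (blue squares), with dashed lines at 1.5-fold and 1 pooled array on each side of a ratio. Hadhb in atria at −1.74 stands far from the rest, and Ucp2 in ventricles at 0.59 sits on the line.

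Among uptake genes, no member passed 1.5-fold in either chamber. Fabp3, the cytosolic fatty acid binding protein of heart and muscle, read 10.94, 10.64, 11.78 and 11.75, with ratios of −0.30 in atria and −0.03 in ventricles. Fabp4, the binding protein of adipocytes, capillary endothelium and macrophages, read 10.51, 10.24, 11.03 and 10.89, with ratios of −0.26 and −0.15. Cd36, the main fatty acid transporter of the heart cell surface, read 10.62, 10.45, 11.38 and 11.46, with ratios of −0.16 and 0.08. For these carriers knockout atria were the lowest array of the 4. Lpl, lipoprotein lipase, read 11.51, 11.61, 12.10 and 12.09, and Slc27a1, a fatty acid transport protein, 8.57, 8.62, 9.0 and 9.0, so that neither differed by more than 0.10 between genotypes. Angptl4, a secreted inhibitor of lipoprotein lipase, read 5.81, 5.99, 5.83 and 6.06, higher on the knockout array by 0.18 and 0.24 but close to the floor.

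Markers of adipocytes and fibroblasts also differed between the atrial arrays. Of 10 adipocyte markers 5 were above the floor in the atrial comparison and 3 of them were at least 1.5-fold lower in knockout atria, with Car3 lowest at −2.09. Over all 10 the median was −0.30, with 6 negative and 4 positive ratios, the highest 0.20 for Lep. Their mean level was 6.0, 5.50, 5.48 and 5.50 on the 4 arrays, highest in wild type atria. The defining markers Adipoq (4.53, 3.80, 4.07 and 3.96), Plin1 and Lep were below the floor on every array. The 10 endothelial markers had a median of 0.12 in atria, from −0.08 to 0.36, and 0.01 in ventricles. The 9 fibroblast markers were all lower in knockout atria, with a median of −0.37. The part of these cells in the Fabp4, Fabp3 and Cd36 values was not tested.

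The activating synthetases leaned low in knockout atria without passing 1.5-fold. Of the 10893 genes above the floor there, 6213 also had negative ratios. Ratios as low or lower were found for 26.5% of genes for Acsl1, 8.47% for Acsl4 and 14.3% for Acsl5. Acsl1, the main long chain acyl-CoA synthetase of heart, read 10.48, 10.30, 11.11 and 11.05, with a ratio of −0.17 in atria. Acsl4, which prefers polyunsaturated chains, read 7.04, 6.67, 6.68 and 6.59 (−0.37), and Acsl5 read 7.02, 6.73, 6.82 and 6.65 (−0.28). In ventricles the ratios of these 3 genes were −0.06, −0.08 and −0.17. Wild type atria were the highest array for Acsl4 and Acsl5, whereas Acsl1 was higher on both ventricular arrays. Acot2, a mitochondrial thioesterase that releases free fatty acid from acyl-CoA, went the other way between genotypes, at 9.54, 9.64, 10.28 and 10.46, or 0.11 in atria and 0.18 in ventricles.

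Genes of the carnitine shuttle differed little between genotypes. Cpt1b, the muscle form of the enzyme that commits fatty acids to mitochondria, read 10.70, 10.78, 11.14 and 11.20 (0.08 in atria and 0.06 in ventricles). Cpt1a, the form typical of liver, read 8.68, 8.72, 8.52 and 8.56 (0.04 in both). Cpt2, the partner enzyme of the inner membrane, read 9.21, 9.28, 10.32 and 10.32, and Crat, carnitine acetyltransferase, differed by at most 0.03 in either chamber. Acacb, which makes the malonyl-CoA that holds the shuttle back, read 8.41, 8.45, 9.07 and 9.10. Mlycd, which degrades malonyl-CoA, read 6.37, 6.54, 7.42 and 7.29, higher by 0.17 in knockout atria and lower by 0.13 in knockout ventricles (−0.13). All 6 genes of the step lay between −0.13 and 0.17.

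Enzymes that deal with double bonds were also close between genotypes. Ech1 read 9.56, 9.69, 10.83 and 10.88, Eci1 9.0, 9.10, 10.15 and 10.27, and Decr1 9.04, 9.11, 9.90 and 9.996, each a little higher on the knockout array of both chambers. Eci2 read 8.34, 8.21, 8.73 and 8.86, lower in knockout atria (−0.13) and higher in knockout ventricles (0.13). The electron transfer flavoprotein genes Etfa and Etfb and its dehydrogenase gene Etfdh had ratios from −0.14 to 0.09 in atria and from −0.12 to −0.01 in ventricles.

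Pdk4 was higher on the knockout array by nearly the same amount in both chambers. This kinase shuts the pyruvate dehydrogenase gate and so favours fatty acid use. It read 10.55, 10.85, 10.55 and 10.86, with ratios of 0.30 in atria and 0.31 in ventricles. Ratios as high or higher were found for 2.8% of genes in ventricles and 6.96% in atria. Ucp3, the uncoupling protein of muscle, read 5.86, 6.15, 7.06 and 7.19 (0.29 and 0.13). Over the 35 members above the floor in both chambers, 14 had a positive ratio in both and 10 a negative ratio in both. Over all 10235 such genes, 25.3% were positive and 32.1% negative in both. The genotype ratio differed between chambers by at least 0.3 for 3 of the 35 members, Hadhb, Ucp2 and Mlycd, and for 19.3% of genes.

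Between chambers the pathway separated clearly. For 29 of the 35 members above the floor (82.9%) both ventricular arrays exceeded both atrial arrays, against 37.3% of all genes, and for 2 (5.71%), Cpt1a and Ucp2, both atrial arrays were the higher, against 30.3%. In the wild type pair 31 members (88.6%) had a negative ratio of atria to ventricles, against 51.5% of genes. Of the 35, 7 were at least 2-fold lower in atria (20%, background 2.23%) and 1 at least 2-fold higher (2.86%, background 3.77%). At 1.5-fold, 21 were lower (60%, background 7.76%) and 1 was higher (2.86%, background 8.32%). The median was −0.68 over the members and −0.01 over all 10872 genes.

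The genes at least 2-fold lower in wild type atria came from several steps. Ech1 was at −1.26, Eci1 at −1.14, Acadvl at −1.11, Cpt2 at −1.11, Acads at −1.10 and Mlycd at −1.05. Ucp3, at −1.21, completed the 7. By step the median was −1.0 for the 4 double bond enzymes, −0.89 for the 3 genes of the electron transfer flavoprotein, −0.75 for the 9 spiral enzymes and −0.56 for both the 6 uptake genes and the 6 shuttle genes. It was −0.22 for the 4 activation genes above the floor, and 0.00 for Ucp2, Ucp3 and Pdk4 together. All members of the spiral, the double bond enzymes, the electron transfer flavoprotein and uptake had negative ratios.

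Of the 6 members above the floor that did not follow this pattern on all arrays, Cpt1a, Acsl4, Acsl5 and Ucp2 have a related member that did. Cpt1a was slightly higher in atria (0.16 in both the wild type and the knockout pair) while Cpt1b was lower (−0.44 and −0.42). Acsl4 (0.36 in the wild type pair) and Acsl5 (0.20) were higher in atria while Acsl1 was lower (−0.63). In the knockout pair Acsl4 and Acsl5 were at 0.08 and 0.09, and their signs turned under median centring. The others, Angptl4 (−0.02) and Pdk4 (0.00), were nearly level between the wild type chambers.

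Ucp2 and Ucp3 went opposite ways by large amounts. Ucp2 was higher in wild type atria by 1.88, or 3.68-fold, and higher by 1.37 in the knockout pair. Ucp3 was lower in atria by 1.21 (−1.21) and in the knockout pair by 1.04 (−1.04). The genes are direct neighbours on chromosome 7 in RefSeq order. Their upstream sequences are shown because these related genes part between the chambers. The stretches are chr7:100472741-100472990 for Ucp3 and chr7:100493108-100493357 for Ucp2, both on the plus strand of GRCm38.p6, 250 bases before each start, read 5′ to 3′. Capitals mark AGGTCA, the core motif bound by nuclear receptors such as PPAR and ERR, on either strand. Ucp3 holds 2 matches and Ucp2 holds 0.

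Ucp3: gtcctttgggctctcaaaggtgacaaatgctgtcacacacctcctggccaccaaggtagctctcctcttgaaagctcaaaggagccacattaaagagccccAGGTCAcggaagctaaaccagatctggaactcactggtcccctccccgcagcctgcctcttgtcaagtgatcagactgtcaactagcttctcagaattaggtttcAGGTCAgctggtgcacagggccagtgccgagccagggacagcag

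Ucp2: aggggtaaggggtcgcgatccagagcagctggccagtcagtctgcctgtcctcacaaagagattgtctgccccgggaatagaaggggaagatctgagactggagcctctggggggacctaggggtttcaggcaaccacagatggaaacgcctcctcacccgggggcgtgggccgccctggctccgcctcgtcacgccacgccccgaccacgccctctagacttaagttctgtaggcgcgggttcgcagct

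**Figure D3:**
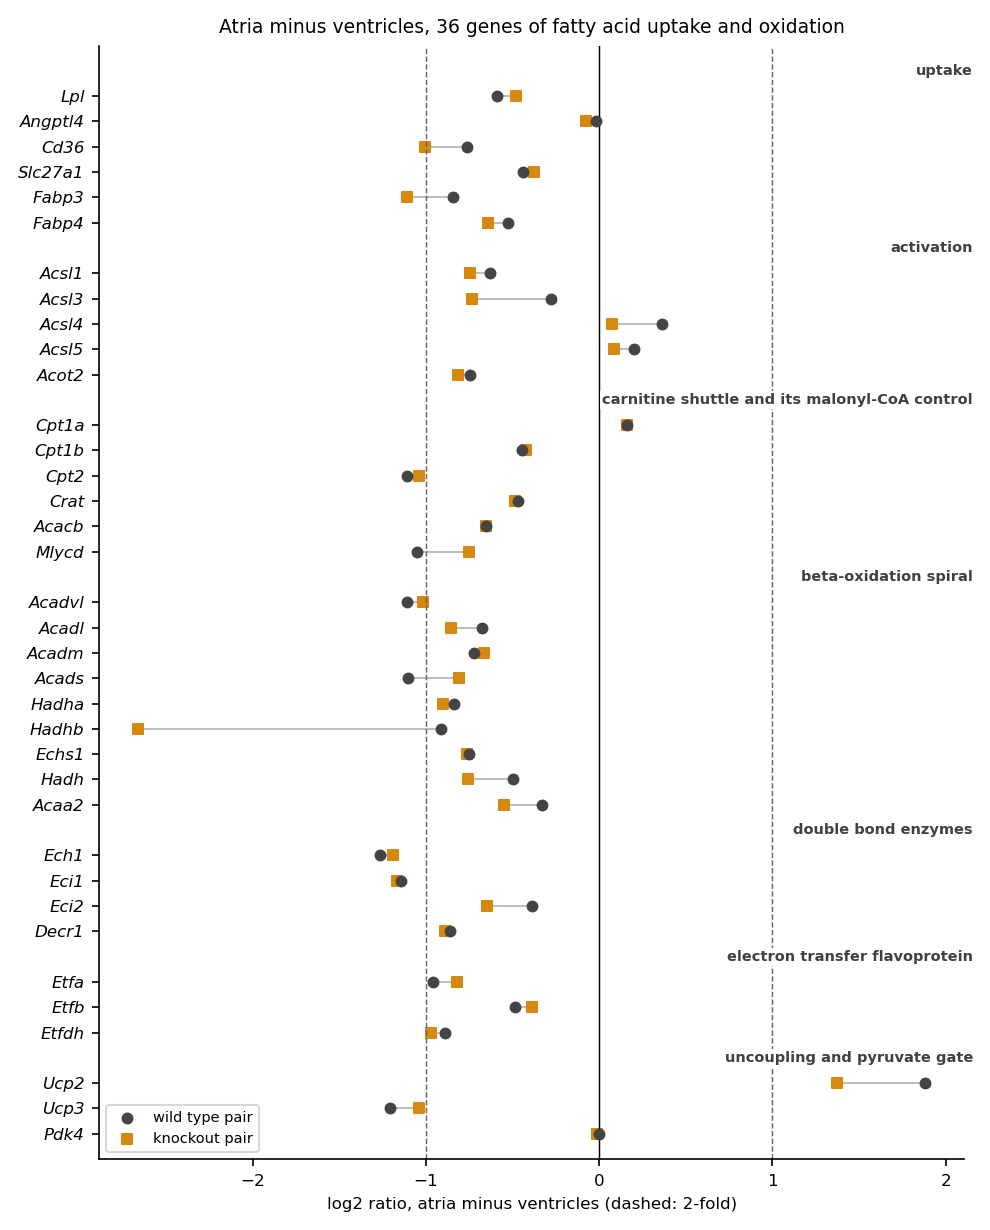
Log2 ratio of atria to ventricles for the 36 genes by step, in the wild type pair (dark circles) and the knockout pair (orange squares), with dashed lines at 2-fold and 1 pooled array on each side of a ratio. Most genes lie left of 0, Ucp2 lies far to the right at 1.88 and 1.37, and the pairs part most for Hadhb, at −0.91 and −2.66.

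In the knockout pair 8 members were at least 2-fold lower in atria (22.9%, background 2.95%) and 1 was higher (2.86%, background 3.35%), with a median of −0.75 over the members and −0.05 over all 10982 genes. Negative ratios were found for 31 members (88.6%, background 55.7%), and at 1.5-fold 23 were lower (65.7%, background 10.3%) and 1 higher (background 7.69%). Against the wild type pair, Hadhb, Fabp3 (−1.11) and Cd36 (−1.01) were added, and Acads (−0.81) and Mlycd (−0.75) dropped out. The lower count rested on the scaling: 9 members under median centring, 4 under quantile normalization and 3 under lowess centring, each with 1 higher. The count over all genes above the floor moved with the scaling too. In that order, 423 of 10966, 314 of 10966 and 284 of 10982 genes were lower, and 321, 393 and 396 were higher. Of all called genes in this pair, 46.8% were lower as deposited and 56.9% under median centring. Chamber ratios of 32 of the 36 genes differed by less than 0.3 between the pairs. The others were Hadhb, Ucp2 and Mlycd, already named for their genotype ratios, and Acsl3, which was below the floor. By arithmetic, this difference equals that of the genotype ratios between chambers, so the count is not a separate result. Of all genes above the floor in both genotype comparisons, 19.3% differed by at least 0.3.

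Markers of the tissue's cells differed between chambers too. The 11 cardiomyocyte markers had a median of −0.09 in wild type atria against ventricles, from −0.80 for Mybpc3 to 0.02. Of these, 10 were negative, and 2 were at least 1.5-fold lower in atria, Mybpc3 and Ckm (−0.67). Actc1, at 12.66 in wild type ventricles, was the highest value on that array. Whether signals this bright still resolve differences was not tested, so the median does not show an equal share of cardiomyocytes. The mean level of the fibroblast markers was 9.24, 8.78, 8.38 and 8.21 on the 4 arrays and that of 7 epicardial and mesothelial markers 6.90, 7.07, 5.44 and 5.57, both higher in atria. Of 10 endothelial markers 0 passed 2-fold, with ratios from −0.74 to 0.81. The part of cell composition in the chamber ratios of the members was not tested.

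**Figure D4:**
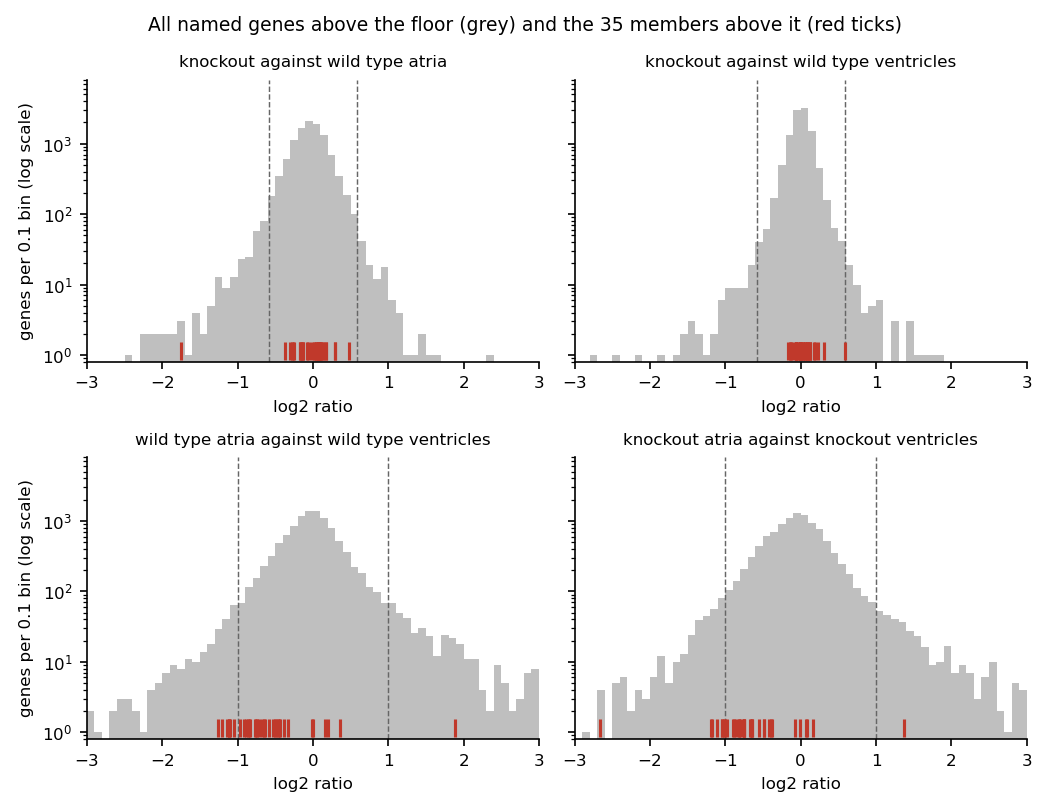
Distribution of log2 ratios over all named genes above the floor (grey bars, number per 0.1 on a log axis) in the 4 comparisons, with the 35 members above the floor as red ticks and dashed lines at the fold that counted. The axis is cut at −3 and 3. Between genotypes most members sit near the centre, with Hadhb (−1.74) and Acads (0.48) in atria and Ucp2 (0.59) in ventricles farthest out, and between chambers they lie left of it, with medians of −0.68 and −0.75.

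The wider pathway was read from 91 further genes, which include some mitochondrial genes outside fatty acid oxidation. In atria 2 of the 81 above the floor passed 1.5-fold, both lower (2.47%, background 2.4%): Abcd2 (−0.92), a peroxisomal transporter of very long chain acyl-CoA, and Acaca (−0.68), the acetyl-CoA carboxylase of lipid synthesis. Both lay close to the floor already in wild type atria, at 5.80 and 5.86. The share called in atria was thus near that of all genes. In ventricles 2 of 82 passed, both higher (2.44%, background 0.531%): the lipid droplet coat gene Plin2 (0.64, from 8.42 to 9.06) and the droplet protein gene Cidea (0.62, from 7.16 to 7.78). Cidea is also a brown adipocyte marker. The 10 adipocyte markers had a median of −0.08 in ventricles, with 4 positive and 6 negative ratios, from −0.44 for Lep to 0.74 for Car3. The part of adipocytes in the Plin2 and Cidea values was not tested. Of 14 lipid droplet and lipolysis genes above the floor, 13 had a positive ratio in ventricles (background 51.1%), with a median of 0.11 and 2 past 1.5-fold. In atria 11 of 14 were positive (background 42.9%), with a median of 0.18 and 0 past 1.5-fold. In atria the droplet coat gene Plin5 of oxidative tissue was at 0.45 and the triglyceride synthesis gene Dgat2 at 0.31, neither past 1.5-fold.

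Most regulators of the pathway differed little by genotype. Ppara, the nuclear receptor that switches on many of these genes, had ratios of 0.03 in atria and 0.12 in ventricles, with −0.16 and −0.15 for the coactivator gene Ppargc1a. The orphan nuclear receptor gene Esrrb had ratios of 0.52 in atria and 0.26 in ventricles. Acaca was the only one of 19 regulators past 1.5-fold in atria (5.26% lower, background 2.4%). In ventricles 0 of 18 above the floor passed (background 0.531% higher and 0.711% lower), and Esrrb and Ppargc1a had the largest sizes there.

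Between wild type chambers 8 of 83 further genes were at least 2-fold lower in atria (9.64%, background 2.23%) and 0 higher (background 3.77%), with a median of −0.37. The mitochondrial genes among them were Mtfp1 (−1.49), Hibch (−1.20), the carnitine carrier gene Slc25a20 (−1.11) and Acsf2 (−1.04). Mtfp1 and Hibch are not themselves enzymes of fatty acid oxidation, so the share of 9.64% does not describe that pathway alone. Among lipid droplet genes Dgat2 (−1.90), Plin5 (−1.54) and Fitm1 (−1.06) passed, and among regulators Perm1 (−1.39), a muscle partner of the ERR and PGC-1 program. Slc25a20 thus stood with Cpt2, its partner in the shuttle. The peroxisomal genes had a median of −0.10 and 0 of 15 past 2-fold, with Ehhadh at −0.84. The mitochondrial list had 20 of 21 negative ratios and a median of −0.36. In the knockout pair 9 of 81 were lower (11.1%, background 2.95%) and 0 higher (background 3.35%), with a median of −0.38, led by Dgat2 (−1.65), Mtfp1 (−1.50) and Hibch (−1.44). Perm1 (−1.33), Slc25a20 (−1.22), Plin2 (−1.19), Plin5 (−1.17) and Cidea (−1.10) were among them.

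RefSeq promoter windows of 300 bases, 250 before and 50 after a start site, matched 29 of the 36 members. The 7 without a matched window were Lpl, Angptl4, Fabp4, Cpt1b, Crat, Acaa2 and Decr1. AGGTCA was present in windows of 7 of them, Acacb, Acadm, Acadvl, Cd36, Cpt1a, Echs1 and Ucp3, against 18.1% of 27025 genes with windows. The MEF2 core, written CTA, any 4 bases and TAG, was in 0 of the 29 and 4.23% of genes, the ERR element TCAAGGTCA in 0 and 0.466%, and the PPAR element, a direct repeat of AGGTCA with any 1 base between, in 0 and 0.0481%. Both strands were searched, and the ERR and PPAR elements both contain AGGTCA. Only these forms and windows were searched. For 29 members, 0 matches to the MEF2 core is near the share of genes, so it does not show that members lack MEF2 sites.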

How the data were processed

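The authors deposited 1 table of log2 intensities with 21212 probe sets and 4 arrays, made with RMA and affy per the submitters' processing notes. RMA corrects background, evens out the arrays and summarises probes, and it compresses differences near background. Versions, array design and genome build: not given in the sources used here. Pooling of RNA came before labelling, per the labels' protocols.

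Probe set IDs hold gene numbers. The platform annotation named 18786 probe sets, and 1917 without an entry, among them Acsl1 and Ucp2, were named by the number in the ID through a RefSeq table of GRCm38.p6. For 18743 of the 18786 the ID number was the annotated gene number. This gave 20699 genes, with 509 probe sets left unnamed. Where probe sets shared a symbol (4 symbols), the one with the highest mean was kept.

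Ratios are differences of log2 values, computed with pandas 2.3.3 and numpy 2.4.6. The counting was tested on simulated data. The members and lists were chosen with earlier results of these data known. All 36 members may be named, and of other pathway lists up to 4 genes past the fold per comparison, or the 2 largest. Other members of these lists were named after their values were seen: Ppara, and Esrrb and Ppargc1a in atria. Alternatives were 3 scalings (median centring, quantile normalization and lowess centring with statsmodels 0.14.6), 2 floors and 2 folds.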

Additional observations from a re-analysis of the deposited data

How the results depend on the processing

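The number of members past the fold depended on the fold. With 1.2-fold for genotype and 1.5-fold for chamber it was 8 in atria, 2 in ventricles, 22 in the wild type chamber pair and 24 in the knockout pair. With 2-fold for genotype and 4-fold for chamber it was 1 in atria (Hadhb), 0 in ventricles, 0 in the wild type pair and 1 in the knockout pair (Hadhb). Quantile normalization gave 0 in ventricles and 5 in the knockout pair, and lowess centring 0 and 4, with a median of −0.59 over the members in that pair under lowess. Other floors and median centring kept every member count within 1.5 times. Hadhb passed 1.5-fold in atria under the 3 other scalings, at −1.78 (median centring), −1.72 (quantile normalization) and −1.69 (lowess centring). The 2 floors and 2 folds do not alter its ratio. Signs turned under another scaling for 3 members in atria (Crat, Acadm and Etfa), 7 in ventricles (Lpl, Slc27a1, Cpt2, Crat, Hadha, Hadhb and Etfb), Pdk4 in the wild type pair, and Acsl4, Acsl5 and Pdk4 in the knockout pair, none of more than 0.09 as deposited. Without a floor, called genes in atria numbered 336 higher and 355 lower, against 117 and 261. The labels give no replicate numbers, so there were no replicates to pair. Precision is limited by having 1 array per group.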
